A study of Mus musculus with 29 samples.

Results

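Complement genes and complement regulators were examined in NMM cells, a murine melanoma line that carries mutant NRAS, after sequential exposure to interferon gamma (IFNγ) and transforming growth factor beta (TGFβ). The 8 genes were taken from the table by symbol, as C1ra, C1s1, C4b, C3, Cfb, Serping1, Cd55 and Cd59a, out of 28229 genes in the count table, and each symbol matched 1 row. They were chosen with earlier results of these data known. Their mRNA was sequenced in 29 libraries. Cells received IFNγ (100 ng/ml), TGFβ (10 ng/ml) or medium for 2, 6, 12 or 24 h, were washed 5 times in PBS and then received a second stimulus for 24 h. The orders of treatment were TGFβ then IFNγ, IFNγ then TGFβ, medium then IFNγ, IFNγ then medium, medium then TGFβ, TGFβ then medium, and medium then medium, and a single library got medium for 24 h and then both cytokines together (the mix). Each of these 7 orders had 4 libraries, 1 for each length of the first stimulation, and every library carried the same NRAS-mutant background. The 4 durations are the only replicates of an order, and because no label names separate cultures, p-values measure the spread between these libraries, which may be technical in part. In orders that began with a cytokine, this spread also includes any effect of the length of exposure. The fit held duration as a factor shared by all orders, which cannot take up an effect of duration particular to an order. Values for 4 libraries are given in the order 2, 6, 12 and 24 h.

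Complement is a cascade of serum proteins made mostly by the liver but also by many other cells. In the classical pathway, the serine protease C1r activates C1s, which cleaves C4 and C2 and so leads to cleavage of C3, while factor B serves the alternative pathway. Host cells restrain the cascade with C1 inhibitor, encoded by Serping1, with CD55, which speeds the decay of the convertases, and with CD59, which blocks assembly of the membrane attack complex.

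Library totals ran from 17179530 to 23668015 reads, and mitochondrially encoded transcripts made up 0.596% to 1.31% of reads. Irf1, an IFNγ target, averaged 505 ± 28.3 CPM (reads scaled to the depth of the library, with SD, n = 4) after medium then IFNγ and 38.5 ± 12.6 CPM after medium then medium. Ctla2a, which rose with TGFβ, averaged 6.12 ± 1.22 CPM after medium then TGFβ and 0.528 ± 0.202 CPM after medium then medium. Among 8 melanocyte lineage markers, Mitf was at 8.40 to 20.2 CPM and Gpnmb at 26.4 to 276 CPM in all libraries. Pmel did not exceed 0.444 CPM and Sox10 0.135 CPM, and Tyr, Tyrp1, Dct and Mlana had no row in the count table. Only 2 of the 8 were above 1 CPM in every library, so the markers of the labelled lineage were detected only in part. Among leukocyte markers, Cd14 was at 17.1 to 76.4 CPM and Cd68 at 2.84 to 6.18 CPM, whereas Ptprc, Csf1r and Lyz2 did not exceed 0.173 CPM. The sums of the other lists were carried by Col3a1 and Dcn (fibroblast) and Cdh5 (endothelial), while the 2 hepatocyte markers with a row together did not exceed 0.156 CPM in any library. The medium library of 6 h stood apart from the other 3 medium libraries, with an SD of log2 differences of 0.596, against 0.320 to 0.361 for the others. Several results in which it weighs are therefore given with and without it, but others, among them those of Cd55, Clu and C1rl, are not.

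All 8 genes were scarce. C3 had 40 reads and Cfb 12 reads summed over the 29 libraries, and neither passed the filter on low counts. The other 6 were tested. C1ra, C1s1 and Serping1 reached 10 reads only in libraries that ended with IFNγ or the mix, as did C4b in 9 of its 13 such libraries, so passing the filter was itself tied to that stimulus. In the table as a whole, 14935 genes were tested with edgeR's quasi-likelihood test, and a gene was called at a Benjamini-Hochberg adjusted p below 0.05 over all of them. A lower level in such bulk libraries can come from fewer expressing cells or from less RNA per cell, which cannot be told apart.

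The first comparison asked what IFNγ did when it was the second stimulus. After medium then IFNγ, 4 of the 8 genes rose (C1ra, C1s1, C4b and Serping1) and Cd59a fell relative to medium then medium, while Cd55 did not pass the test and C3 and Cfb were not tested. In this comparison 43.8% of all tested genes were called, 22.7% higher and 21.2% lower. All comparisons with medium then medium share its 4 libraries. C1ra, C1s1 and Serping1 reached 10 reads only in libraries that ended with IFNγ or the mix. For them, a lack of overlap and the adjusted p-values in comparisons with such libraries describe the difference and are no separate support for it. How many of all genes had groups without overlap was not counted.

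C1ra, one of the mouse genes for the protease C1r, lies on chromosome 6 at 124512405 to 124523443 (GRCm38, plus strand). It had 22, 11, 7 and 9 reads after medium then IFNγ, against 0, 1, 2 and 0 reads after medium then medium. Its level was 0.612 ± 0.266 CPM with IFNγ and 0.0391 ± 0.0481 CPM with medium (SD, n = 4 each). The groups did not overlap, and the log2 fold change was 3.77 (SE 0.72, adjusted p = 2.57e-04 in the edgeR fit).

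C1s1, a mouse gene for the protease C1s, lies on the same chromosome at 124530345 to 124542359 on the minus strand. It had 35, 32, 45 and 30 reads after medium then IFNγ, against 1, 3, 1 and 1 reads after medium then medium. All IFNγ libraries were far above all medium libraries, and they were more even than those of C1ra, at 1.82 ± 0.320 CPM with IFNγ and 0.0809 ± 0.0617 CPM with medium. The log2 fold change was 4.44 (SE 0.43, adjusted p = 4.23e-08 in edgeR). Gm16567, annotated as antisense, overlaps 576 exon bases of C1s1 and had no row in the count table. Whether the counting used the strand is not given in the sources used here. The paralogs C1rb and C1s2 had at most 1 and 3 reads in any library.

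C4b, encoding complement component C4, lies on chromosome 17 at 34728380 to 34743882 (minus strand). It had 104, 62, 90 and 59 reads after medium then IFNγ, against 4, 1, 4 and 9 reads after medium then medium. The groups did not overlap, at 3.98 ± 0.706 CPM with IFNγ and 0.234 ± 0.187 CPM with medium. The log2 fold change was 4.09 (SE 0.50, adjusted p = 8.75e-07 in edgeR). C4a is a near-identical paralog with 1 to 17 reads per library, so reads could be split between C4b and C4a, and C4a itself had a log2 difference of 1.17 in the same comparison (SE 0.58, adjusted p = 0.109).

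C3, the central component on which all activation routes converge, lies on chromosome 17 at 57203970 to 57228136 (minus strand). It had 3, 1, 4 and 0 reads after medium then IFNγ, against 3, 0, 4 and 1 reads after medium then medium. The pooled counts were 8 reads in each group, a ratio of 0.993 with a 95% counting interval of 0.325 to 3.03. No library of any order had more than 4 reads of C3, and a change within that interval was not detectable at this depth. In the other 5 orders and the mix, C3 had 0 to 3 reads and Cfb 0 to 2 reads per library.

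Cfb, encoding factor B, lies on chromosome 17 at 34856374 to 34862518 (minus strand). It had 1, 1, 1 and 2 reads after medium then IFNγ, against 0, 0, 1 and 1 reads after medium then medium. These 5 reads with IFNγ and 2 reads with medium gave a ratio of 2.48, with a 95% counting interval of 0.406 to 26.1. Fitted with no filter on low counts, Cfb had a log2 difference of 1.10 and an adjusted p of 0.73 in edgeR. Cfb shares 2246 exon bases with Gm20547, a protein-coding gene on the same strand that had no row in the count table. Reads from the shared exons may still have been dropped in counting, so the level of Cfb is uncertain.

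**Figure D1:**
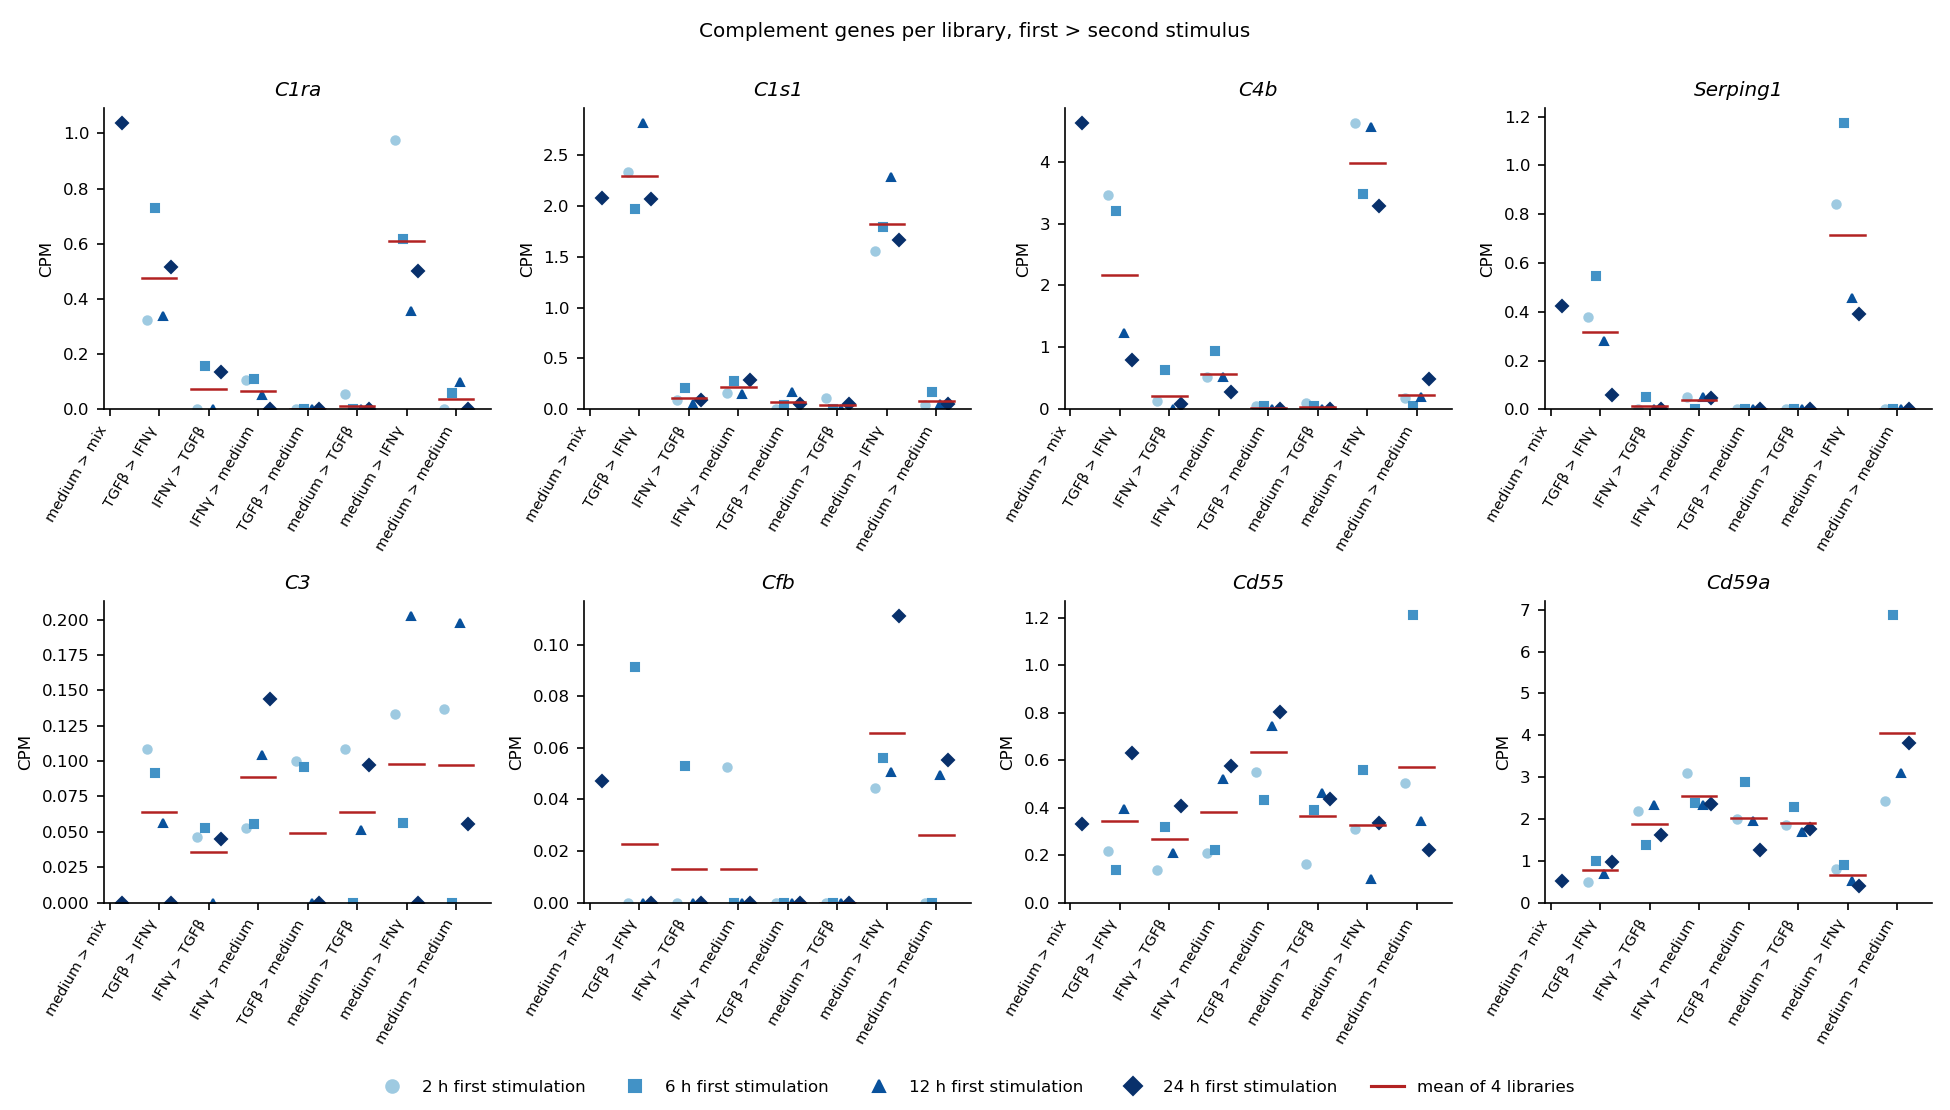
Depth-scaled reads (CPM, linear axes from 0) of the 8 complement genes in each of the 29 libraries, by first and second stimulus, with the marker giving the length of the first stimulation and the red line the mean of 4 libraries. C1ra, C1s1, C4b and Serping1 were high where IFNγ or the mix came second, Cd59a was low there, and C3 and Cfb stayed at 4 reads or fewer everywhere.

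Serping1, the gene of C1 inhibitor, lies on chromosome 2 at 84765387 to 84775444 (minus strand). It had 19, 21, 9 and 7 reads after medium then IFNγ, against 0 reads in each of the 4 medium then medium libraries. With 56 reads with IFNγ against the limit of 3 reads that a count of 0 allows over the medium group, the level was at least 18.5-fold higher with IFNγ (adjusted p = 1.28e-05 in edgeR). The gene of the inhibitor was thus called in the same direction as the genes of the proteases it inhibits.

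Cd55, the gene of decay-accelerating factor, lies on chromosome 1 at 130439027 to 130462744 (minus strand). It had 7, 10, 2 and 6 reads after medium then IFNγ, against 11, 21, 7 and 4 reads after medium then medium. The groups overlapped, and the log2 difference was -0.80 (SE 0.50, 95% interval -1.85 to 0.26, adjusted p = 0.212 in edgeR). Without the medium library of 24 h, which had the fewest Cd55 reads of its group, the log2 fold change was -1.20 and the adjusted p 0.0459. That fit kept the 6 h medium library, which had the most Cd55 reads of its group (21). A value without the 6 h library is not given for Cd55, so no fall is read from this. The antisense gene Gm16083 overlaps 102 exon bases of Cd55 and had at most 1 read in a library.

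Cd59a, a mouse gene for the inhibitor of the terminal pathway, lies on chromosome 2 at 104095801 to 104115354 (plus strand). It was the member that fell, with 18, 16, 10 and 7 reads after medium then IFNγ, against 53, 119, 63 and 69 reads after medium then medium. The groups did not overlap, at 0.648 ± 0.239 CPM with IFNγ and 4.06 ± 1.96 CPM with medium. The log2 fold change was -2.59 (SE 0.29, adjusted p = 3.72e-07 in edgeR), and it was -2.31 (adjusted p = 1.64e-06) without the 6 h medium library, in which Cd59a reached 6.88 CPM. The sum of 6 fibroblast markers, mostly Col3a1 and Dcn, moved in the same direction, at 191 to 227 CPM with IFNγ and 571 to 1936 CPM with medium. The melanocyte lineage sum, mostly Gpnmb, was 107 to 178 CPM with IFNγ and 164 to 290 CPM with medium, and the part of these shifts in the results for the 5 called genes was not tested. The second mouse CD59 gene, Cd59b, had at most 1 read in any library.

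The promoter table of RefSeq on GRCm38.p6 held windows from 250 bases before to 50 bases after the start site for 5 of the 8 genes, and Cfb, C4b and Serping1 are named only. The sequences upstream of C1s1, which rose, and of Cd59a, which fell, are shown here to set the largest rise with a point estimate beside the fall, together with the short stretch of the C1ra window that held a motif. They are written 5′ to 3′ on the gene's strand, with a motif match in capitals. C1s1 is chr6:124542360-124542609 (minus strand), Cd59a is chr2:104095551-104095800 (plus strand) and C1ra is chr6:124512642-124512670 (plus strand).
C1s1: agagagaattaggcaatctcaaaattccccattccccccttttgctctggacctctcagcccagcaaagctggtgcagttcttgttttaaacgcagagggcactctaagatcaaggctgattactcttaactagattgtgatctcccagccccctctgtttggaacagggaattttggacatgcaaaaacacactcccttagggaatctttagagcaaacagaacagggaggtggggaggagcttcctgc
Cd59a: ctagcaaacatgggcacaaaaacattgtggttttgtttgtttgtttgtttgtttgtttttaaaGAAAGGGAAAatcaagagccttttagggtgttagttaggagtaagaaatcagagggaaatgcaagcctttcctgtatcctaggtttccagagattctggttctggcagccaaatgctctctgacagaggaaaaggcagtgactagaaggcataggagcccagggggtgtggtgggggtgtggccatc
C1ra: caaatgcttcaTTCCCTGAAacattcctc

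The windows were searched on both strands for the GAS element of interferon-induced genes (TTCNNNGAA), the ISRE core bound by interferon regulatory factors (GAAA, any 2 bases, GAAA), the SMAD box (CAGACA), the CCAAT box (CCAAT) and the NF-kB site. The GAS element was found in 1 of the 6 windows of these genes and in 8.30% of 32851 windows of the same length. It lay in C1ra, with its first base at position 33 where the RefSeq start site is position 1. The RefSeq start of C1ra lies 216 bases inside the gene as the count table bounds it. The ISRE core was found in 1 of the 6 windows, in Cd59a 187 bases before the start, and in 3.44% of all windows. The SMAD box, the NF-kB site and the CCAAT box were in 0 of the 6 windows and in 21.0%, 8.46% and 37.4% of all windows. None of the 5 motifs was found in the C1s1 window, which says only that these letters are not in it.

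The next comparison asked what remained when IFNγ came first and was washed out for 24 h. None of the 8 genes was called after IFNγ then medium relative to medium then medium with edgeR, nor with DESeq2, and 0.79% of all tested genes were called. At an unadjusted p below 0.05 there were 3 of the 6 tested, beside 2356 of all 14935 genes. C1s1 had 3, 5, 3 and 6 reads after IFNγ then medium, against 1, 3, 1 and 1 reads after medium then medium. It was higher at each of the 4 durations but the groups overlapped, and the log2 difference was 1.43 (SE 0.60, adjusted p = 0.247 in edgeR). C4b had 10, 17, 10 and 6 reads after IFNγ then medium, with a log2 difference of 1.21 (SE 0.63, adjusted p = 0.364). Serping1 had 1, 0, 1 and 1 reads there, and C1ra 2, 2, 1 and 0. Cd59a had 59, 43, 45 and 49 reads, a log2 difference of -0.61 (SE 0.25, adjusted p = 0.222).

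Set directly against IFNγ as the second stimulus, IFNγ as the first stimulus left 4 of the 8 genes lower and Cd59a higher, with 41.6% of all genes called, 20.8% in each direction. The log2 fold changes of IFNγ then medium over medium then IFNγ were -3.13 (SE 0.65) for C1ra, -3.00 (SE 0.36) for C1s1, -2.88 (SE 0.43) for C4b and -3.94 (SE 0.57) for Serping1. Their adjusted p-values in edgeR ran from 8.26e-07 for C1s1 to 7.18e-04 for C1ra. Cd59a averaged 2.54 ± 0.368 CPM after IFNγ then medium and 0.648 ± 0.239 CPM after medium then IFNγ, with a log2 change of 1.98 (SE 0.30, adjusted p = 2.14e-05). For all 5 genes the direction was the same at each of the 4 durations.

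The order of the cytokines gave the same division. After TGFβ then IFNγ relative to IFNγ then TGFβ, C1ra, C1s1, C4b and Serping1 rose and Cd59a fell, and 32.5% of all genes were called, 16.4% higher and 16.2% lower. C1s1 had 43, 43, 50 and 36 reads after TGFβ then IFNγ, against 2, 4, 1 and 2 reads after IFNγ then TGFβ. The log2 fold change was 4.29 (SE 0.39, adjusted p = 2.69e-08 in edgeR), and the groups did not overlap. C1ra had 6, 16, 6 and 9 reads after TGFβ then IFNγ, against 0, 3, 0 and 3 reads after IFNγ then TGFβ, with no overlap and a log2 change of 2.61 (SE 0.66, adjusted p = 0.00463).

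C4b had 64, 70, 22 and 14 reads after TGFβ then IFNγ, against 3, 12, 0 and 2 reads after IFNγ then TGFβ, and the groups did not overlap in CPM, with a log2 change of 3.31 (SE 0.53, adjusted p = 5.49e-05). Serping1 had 7, 12, 5 and 1 reads after TGFβ then IFNγ, against 0, 1, 0 and 0 reads after IFNγ then TGFβ. In CPM each Serping1 library of TGFβ then IFNγ lay above all of IFNγ then TGFβ, the 24 h library by the least, and the log2 fold change was 4.08 (SE 0.77, adjusted p = 0.00105). Cd59a had 9, 22, 12 and 17 reads after TGFβ then IFNγ, against 47, 26, 45 and 36 reads after IFNγ then TGFβ. The groups did not overlap, the log2 fold change was -1.28 (SE 0.31, adjusted p = 0.00251), and without all libraries of 12 h it was -1.10 with an adjusted p of 0.0510. The fibroblast markers summed to 148 to 198 CPM after TGFβ then IFNγ and 492 to 661 CPM after IFNγ then TGFβ. The melanocyte lineage sum was 37.7 to 86.2 CPM after TGFβ then IFNγ and 89.8 to 155 CPM after IFNγ then TGFβ, and the part of these shifts was not tested. Cd55 had 4, 3, 7 and 11 reads after TGFβ then IFNγ, against 3, 6, 4 and 9 reads after IFNγ then TGFβ, and was not called.

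IFNγ before TGFβ, set against medium before TGFβ, gave no call among the 8 genes with edgeR or DESeq2, beside 0.0937% of all genes called in edgeR. At an unadjusted p below 0.05 there were 0 of the 6 tested, beside 1727 of all 14935 genes. C4b had 3, 12, 0 and 2 reads after IFNγ then TGFβ, against 2, 1, 0 and 0 reads after medium then TGFβ, and the groups overlapped (log2 difference 2.20, SE 1.08, adjusted p = 0.440 in edgeR). C1s1 had 2, 4, 1 and 2 reads after IFNγ then TGFβ, against 2, 0, 0 and 1 reads after medium then TGFβ, with a log2 difference of 1.35 (SE 0.78). Cd59a, the one member with ample reads in both, had 47, 26, 45 and 36 reads after IFNγ then TGFβ, against 34, 41, 33 and 36 reads after medium then TGFβ. Its log2 difference was 0.02, with a 95% interval of -0.55 to 0.58. Cd55 had 3, 6, 4 and 9 reads after IFNγ then TGFβ, against 3, 7, 9 and 9 reads after medium then TGFβ, and was not called either (-0.44, 95% interval -1.59 to 0.72).

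**Figure D2:**
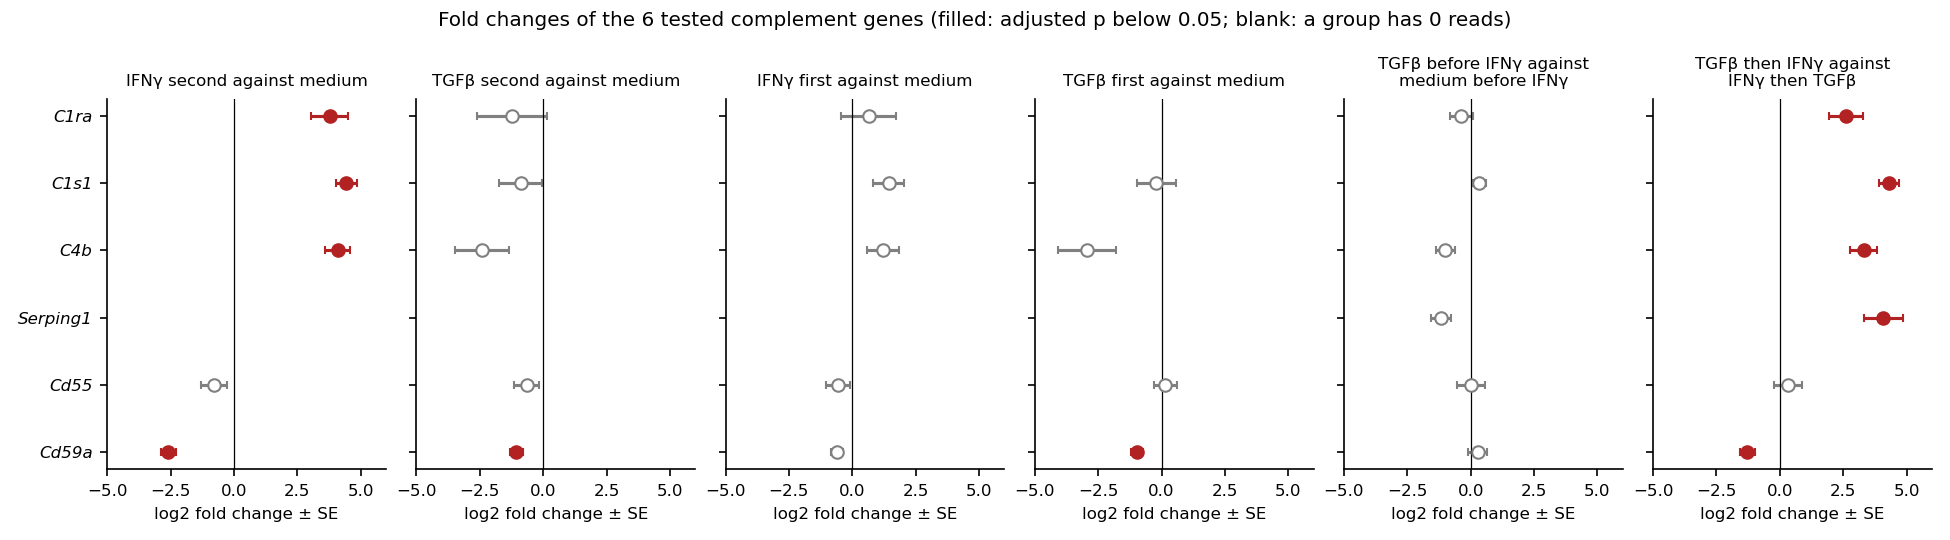
Log2 fold changes (points) with their standard errors (bars) from the edgeR fit for the 6 tested genes in 6 comparisons, filled red where the adjusted p was below 0.05, with no point where a group had 0 reads. C1ra, C1s1 and C4b lay between 2.61 and 4.44 with IFNγ second against medium and with TGFβ then IFNγ against IFNγ then TGFβ, and Cd59a lay below 0 in 5 of the 6 comparisons.

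TGFβ given alone was examined in both positions. After medium then TGFβ relative to medium then medium, 1 of the 8 genes was called, Cd59a, and it fell, beside 23.3% of all genes called, 11.7% higher and 11.6% lower. Cd59a had 34, 41, 33 and 36 reads after medium then TGFβ, against 53, 119, 63 and 69 reads after medium then medium. The TGFβ libraries were close together at 1.89 ± 0.271 CPM and below every medium library, with a log2 change of -1.05 (SE 0.25, adjusted p = 0.00413 in edgeR) that was -0.78 without the 6 h medium library (adjusted p = 0.0298). C4b had 2, 1, 0 and 0 reads after medium then TGFβ, a log2 difference of -2.42 (SE 1.06, adjusted p = 0.108), and DESeq2 gave an adjusted p of 0.0332 for it. C1s1 had 2, 0, 0 and 1 reads, C1ra 1, 0, 0 and 0 and Serping1 0 in every library, and no fall was detectable from such counts. The melanocyte lineage sum was 61.1 to 96.2 CPM with TGFβ and 164 to 290 CPM with medium, and the endothelial sum was 16.8 to 23.5 CPM with TGFβ and 6.99 to 12.3 CPM with medium, both without overlap. The fibroblast sum was 471 to 603 CPM with TGFβ and 571 to 1936 CPM with medium, and the part of these shifts in the fall of Cd59a was not tested.

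After TGFβ then medium, again Cd59a alone was called among the 8, beside 29% of all genes, 14.5% in each direction. It had 40, 60, 34 and 22 reads after TGFβ then medium, at 2.02 ± 0.661 CPM. The 6 h library of TGFβ then medium lay above the lowest medium library, so the groups overlapped, and the log2 fold change was -0.97 (SE 0.25, adjusted p = 0.00556 in edgeR). Without the 6 h medium library it was -0.68 (adjusted p = 0.0481), and the call was lost when all libraries of 24 h were left out (-0.82, adjusted p = 0.0659) or when the fit held only these groups (adjusted p = 0.0616). The marker sums after TGFβ then medium were 37.6 to 84.2 CPM for the melanocyte lineage, 20.4 to 22.5 CPM for endothelial and 353 to 680 CPM for fibroblast markers, against 164 to 290, 6.99 to 12.3 and 571 to 1936 CPM after medium then medium, and their part was not tested. C4b had 1, 1, 0 and 0 reads after TGFβ then medium, against 4, 1, 4 and 9 reads after medium then medium, a log2 difference of -2.94 (SE 1.15, adjusted p = 0.0579). It passed the threshold with DESeq2 (adjusted p = 0.0116), with no filter on low counts (0.0483), without the 6 h medium library (0.0275) and without all libraries of 6 h (0.0347). It also passed when the 6 h or 12 h library of medium then IFNγ or of IFNγ then TGFβ, which enter only the shared fit, was left out (0.0390 to 0.0496). Cd55 had 11, 9, 13 and 14 reads, its highest sum in any order, and was not called (log2 difference 0.15, SE 0.46, adjusted p = 0.852). TGFβ as first against TGFβ as second stimulus gave no call for any gene in the table with edgeR (0%), although 928 genes had an unadjusted p below 0.05, 0 of them among the 8. DESeq2 called 34 genes there, with 0 of the 8.

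Whether TGFβ beforehand altered the response to IFNγ was read from TGFβ then IFNγ against medium then IFNγ. None of the 8 genes was called with edgeR or with DESeq2, and 15.8% of all genes were called. At an unadjusted p below 0.05 there were 2 of the 6 tested, C4b and Serping1, beside 4342 of all 14935 genes, a share near that of the members. Both genes were lower at each of the 4 durations. C4b had 64, 70, 22 and 14 reads after TGFβ then IFNγ, against 104, 62, 90 and 59 reads after medium then IFNγ. In CPM this was 3.47, 3.20, 1.24 and 0.802 after TGFβ then IFNγ, against 4.62, 3.47, 4.56 and 3.28 after medium then IFNγ.

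For C4b the 12 h and 24 h libraries with TGFβ first were far below the others, and the 2 h library overlapped with the group without TGFβ. The log2 difference was -0.998 (SE 0.36, adjusted p = 0.0634 in edgeR). It passed the threshold without the TGFβ then IFNγ library of 2 h (-1.30, adjusted p = 0.0373), without the medium then IFNγ library of 6 h (-1.31, adjusted p = 0.0264), without all libraries of 6 h (-1.28, adjusted p = 0.0219) and with no filter on low counts (-0.99, adjusted p = 0.0473), whereas DESeq2 gave 0.130. It also passed when the medium then medium library of 6 h (adjusted p = 0.0349) or 24 h (0.0352) or the IFNγ then TGFβ library of 6 h (0.0479) was left out, which are not in this comparison but enter the shared fit. Of 17 alternatives within the comparison, 13 did not pass. With its libraries or whole durations left out, the log2 difference ran from -1.31 to -0.72 and the adjusted p in edgeR reached 0.346.

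Serping1 had 7, 12, 5 and 1 reads after TGFβ then IFNγ, against 19, 21, 9 and 7 reads after medium then IFNγ. The groups overlapped, and the log2 difference was -1.17 (SE 0.39, adjusted p = 0.0575 in edgeR, 0.261 in DESeq2). It did not pass in any of 17 alternatives. With libraries of the compared groups or whole durations left out, its adjusted p in edgeR ran from 0.0793 to 0.185. Without the medium then medium library of 6 h the adjusted p was 0.0443, and without the IFNγ then medium library of 6 h it was 0.0378, both being outside this comparison but in the shared fit. C1s1 was at 2.29 ± 0.382 CPM after TGFβ then IFNγ and 1.82 ± 0.320 CPM after medium then IFNγ, a log2 difference of 0.33 with a 95% interval of -0.21 to 0.87 (adjusted p = 0.429). C1ra had a log2 difference of -0.37 (95% interval -1.34 to 0.60, adjusted p = 0.651), and Cd59a one of 0.27 (95% interval -0.48 to 1.02, adjusted p = 0.675).

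Whether the effect of TGFβ beforehand differed between IFNγ and medium as the second stimulus was tested as an interaction. It was called for 0 of the 8 genes with edgeR and with DESeq2, beside 0.395% of all genes in edgeR. At an unadjusted p below 0.05 there was 1 of the 6 tested, beside 1926 of all 14935 genes. That member was Cd59a, whose log2 difference between the effects was 1.24 (SE 0.44, adjusted p = 0.242). The matching interaction for IFNγ beforehand with TGFβ or medium second gave 0 calls among the 8 with edgeR and with DESeq2, and 0% over all genes in edgeR. At an unadjusted p below 0.05 there were 0 of the 6 tested, beside 1078 of all 14935 genes.

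The length of the first stimulation was read as a slope on log2 duration in the same kind of fit. No slope was called for any of the 6 tested genes in the 4 orders that began with a cytokine, where 1.33% (TGFβ then medium), 0.208% (TGFβ then IFNγ), 0% (IFNγ then medium) and 0.0067% (IFNγ then TGFβ) of all genes were called. The slope of C4b after TGFβ then IFNγ was -0.60 in log2 per doubling of the duration (SE 0.217, unadjusted p = 0.0125, adjusted p = 0.215), and it was the only one of these slopes with an unadjusted p below 0.05. C4b after medium then IFNγ had a slope of -0.09 (SE 0.186, adjusted p = 0.982). Serping1 had slopes of -0.45 (SE 0.317) after TGFβ then IFNγ and -0.34 (SE 0.246) after medium then IFNγ, and neither passed the test (adjusted p = 0.557 and 0.972).

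The library that received both cytokines together after 24 h of medium had no replicate. It held 98 reads of C4b, against 14 reads in the TGFβ then IFNγ library of 24 h, a ratio of depth-scaled counts of 5.77 with a 95% counting interval of 3.28 to 10.9. Against the 59 reads of the medium then IFNγ library of 24 h the ratio was 1.41 (1.01 to 1.98). For Serping1 it held 9 reads, against 1 read in the TGFβ then IFNγ library and 7 in the medium then IFNγ library of 24 h. C1s1 had 44 reads in the mix, against 36 in the TGFβ then IFNγ library and 30 in the medium then IFNγ library, with ratios of 1.01 (0.634 to 1.61) and 1.25 (0.766 to 2.05). C1ra had 22 reads in the mix, against 9 in the TGFβ then IFNγ library and 9 in the medium then IFNγ library. Cd59a was at 0.520 CPM in the mix, which lay within the 0.389 to 1.01 CPM of the 8 libraries that ended with IFNγ alone. These intervals compare single libraries and cover counting error only.

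**Figure D3:**
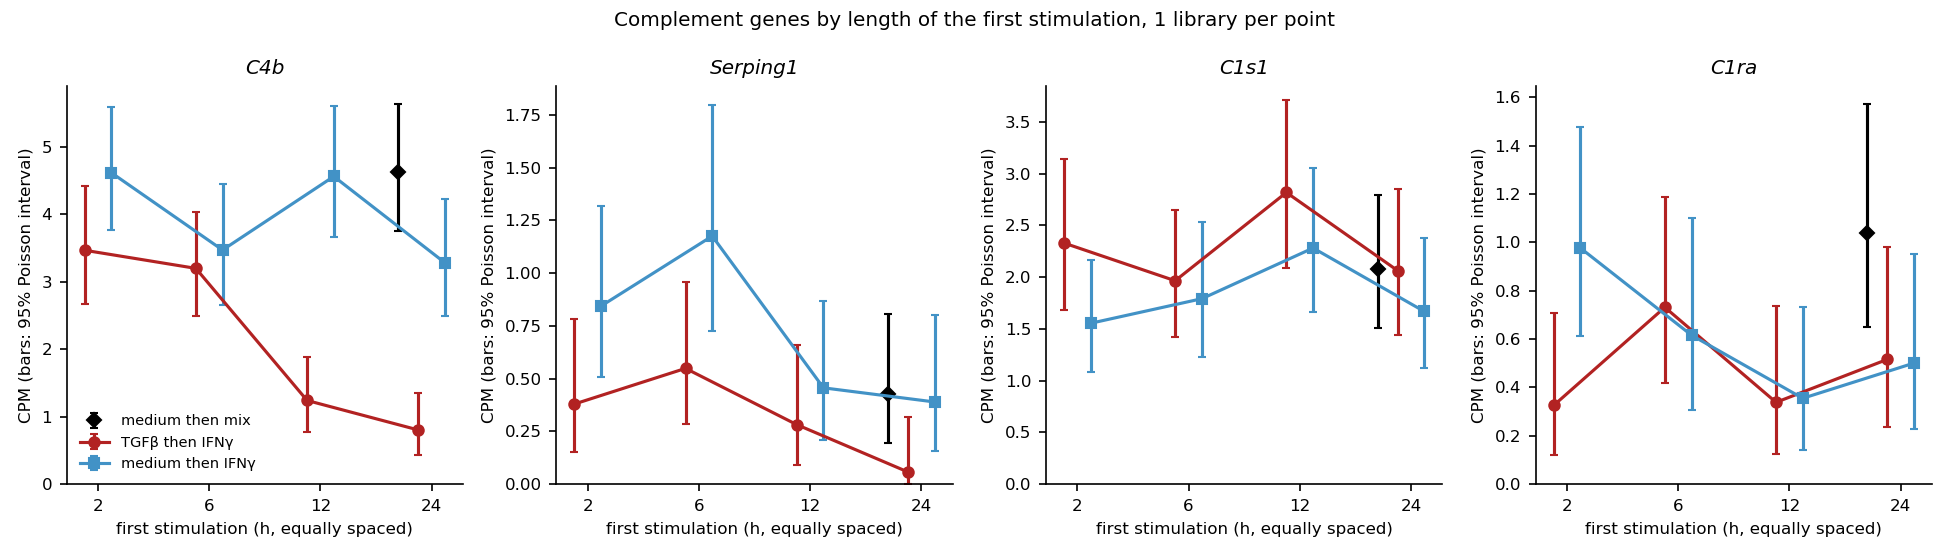
CPM of C4b, Serping1, C1s1 and C1ra against the length of the first stimulation (2 to 24 h, equally spaced) in the mix library, after TGFβ then IFNγ and after medium then IFNγ, 1 library per point, with 95% Poisson counting intervals. C4b after TGFβ then IFNγ was 3.47 CPM at 2 h and 0.802 CPM at 24 h, the mix library was at 4.63 CPM, and C1s1 stayed between 1.55 and 2.82 CPM throughout.

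Levels were compared between genes per kilobase of exon (RPKM), since the 8 genes differ in length. After medium then IFNγ the order was C4b at 0.699 ± 0.124 RPKM, C1s1 at 0.583 ± 0.102, Cd59a at 0.358 ± 0.132, Serping1 at 0.308 ± 0.157 and C1ra at 0.205 ± 0.0891 (SD, n = 4), followed by Cd55, Cfb and C3. The ranges of C4b and C1s1 overlapped, as did those of Cd59a, Serping1 and C1ra. C1s1 and Serping1 overlapped as well, since the highest Serping1 library (0.506 RPKM) lay above the lowest C1s1 library (0.497 RPKM). That C1s1 library lay just above the highest Cd59a library (0.495 RPKM). After TGFβ then IFNγ, C1s1 came first at 0.733 ± 0.122 RPKM followed by Cd59a at 0.434 ± 0.137 RPKM and C4b at 0.382 ± 0.237 RPKM. In the 5 orders that did not end with IFNγ, Cd59a came first, from 1.04 ± 0.252 RPKM after IFNγ then TGFβ to 2.24 ± 1.08 RPKM after medium then medium, and the highest value of any other member in those libraries was 0.250 RPKM, of Cd55 in the 6 h medium library.

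Across the 29 libraries, log2 CPM of the 4 genes that rose with IFNγ was correlated, with Pearson's r from 0.881 (C1s1 and Serping1) to 0.906 (C1ra and C1s1), while r with Cd59a lay between -0.79 for C1s1 and -0.71 for C4b. These are descriptions, since the libraries share the design. The genes most like each member by this measure were Ccdc25, Nfkbib and Ripk1 for C1ra (r = 0.928 to 0.932), Apol10b, Serpina3f and Lrrtm2 for C1s1 (0.957 to 0.972), Ptpn22, Gm5431 and Crybg1 for C4b (0.954 to 0.964), and Bak1, 1110038F14Rik and Psip1 for Serping1 (0.948 to 0.954). For Cd59a they were Ltbp3, Ptgs1 and Rgl3 (0.945 to 0.957), and for Cd55 the closest gene, C2cd2l, reached 0.689.

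A list of 55 other complement genes put these values in context. Of these, 35 had a row in the table analysed and 13 were tested. The untested genes included C2, Hc (C5), C9 and Cfi, with at most 9 reads in any library. With IFNγ second relative to medium, 3 of the 13 rose (C3ar1, C1qbp and Calr), 3 fell (Masp1, Colec12 and Clu) and 7 were not called. Over all tested genes 22.7% were called higher and 21.2% lower, so these counts were near the shares of all genes. The median log2 difference of the 13 was -0.04, against -0.01 over all tested genes. The calls of C1qbp (log2 fold change 0.17) and Calr (0.34) were small and were lost without the 6 h medium library, where they were 0.10 (adjusted p = 0.0891) and 0.24 (0.113), and without the duration term 1 of the 13 rose and 2 fell. Calr was also lost without the medium then IFNγ library of 6 h (adjusted p = 0.0582). The call of C3ar1 is limited by the filter on low counts, as given below.

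Clu, encoding clusterin, a fluid-phase inhibitor of the terminal complex, was far more abundant than the 8 genes. It averaged 290 ± 90.6 CPM after medium then IFNγ and 499 ± 117 CPM after medium then medium, with a log2 change of -0.83 (SE 0.18, adjusted p = 7.50e-04 in edgeR, 0.0908 without the duration term). C3ar1, the receptor of the C3a fragment, averaged 0.761 ± 0.316 CPM with IFNγ and 0.163 ± 0.0590 CPM with medium, with a log2 change of 2.13 (SE 0.56, adjusted p = 0.00349). It reached the minimum count of the filter only in libraries that ended with IFNγ or the mix, and had at most 7 reads in any other. Its passing the filter was thus tied to that stimulus. The adjusted p-value of C3ar1 therefore describes the difference and is no separate support for a rise. Masp1, a protease of the lectin pathway, averaged 64.7 ± 6.85 CPM with IFNγ and 136 ± 46.6 CPM with medium, a log2 change of -1.04 (SE 0.11) that was -0.86 without the 6 h medium library. Cr1l, the membrane regulator also called Crry, stayed at 31.7 ± 1.11 CPM with IFNγ and 32.4 ± 0.647 CPM with medium, with a log2 difference of -0.03 and a standard error of 0.07.

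With TGFβ second, 1 of the 13 rose (C1qbp) and 6 fell (among them C1rl, Masp1, Colec12, Clu and Calr). Over all tested genes 11.7% were called higher and 11.6% lower. The median log2 difference of the 13 was -0.36, against 0.00 over all tested genes. Without the duration term 1 rose and 3 fell, and without the 6 h medium library 1 rose and 5 fell. C1rl had 1, 0, 0 and 0 reads after medium then TGFβ, against 1, 11, 1 and 8 reads after medium then medium, and the groups overlapped. C1rl reached 10 reads only in the 6 h medium library, so its passing the filter was tied to the group in which it was high. The call of C1rl is therefore no separate support for a fall. Its call was lost in 3 of 17 alternatives. Over the left-out libraries and durations its log2 difference ran from -5.79 to -2.88, with an adjusted p in edgeR of up to 0.120. Colec12 (-0.49, adjusted p = 0.0345) and Calr (-0.36, adjusted p = 0.0328) were near the threshold and were lost in 8 and 10 of 17 alternatives. Without the 6 h medium library Colec12 was at -0.21 (adjusted p = 0.268), and over the left-out libraries and durations its adjusted p reached 0.374 and that of Calr 0.288. With TGFβ before IFNγ 0 rose and 4 fell (among them Masp1, Clu and Calr), beside 15.8% of all genes called in either direction. The median was -0.24, against -0.01. There, without the duration term, 0 rose and 2 fell, and without the medium then medium library of 6 h 1 rose and 5 fell. Calr was lost in 7 of 17 alternatives there, with an adjusted p of up to 0.143. Clu averaged 109 ± 62.8 CPM after TGFβ then IFNγ and 290 ± 90.6 CPM after medium then IFNγ, with a log2 change of -1.50 (SE 0.19, adjusted p = 4.33e-06 in edgeR), and it was lower at each of the 4 durations. With IFNγ first, 0 of the 13 were called, beside 0.79% of all genes.

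**Figure D4:**
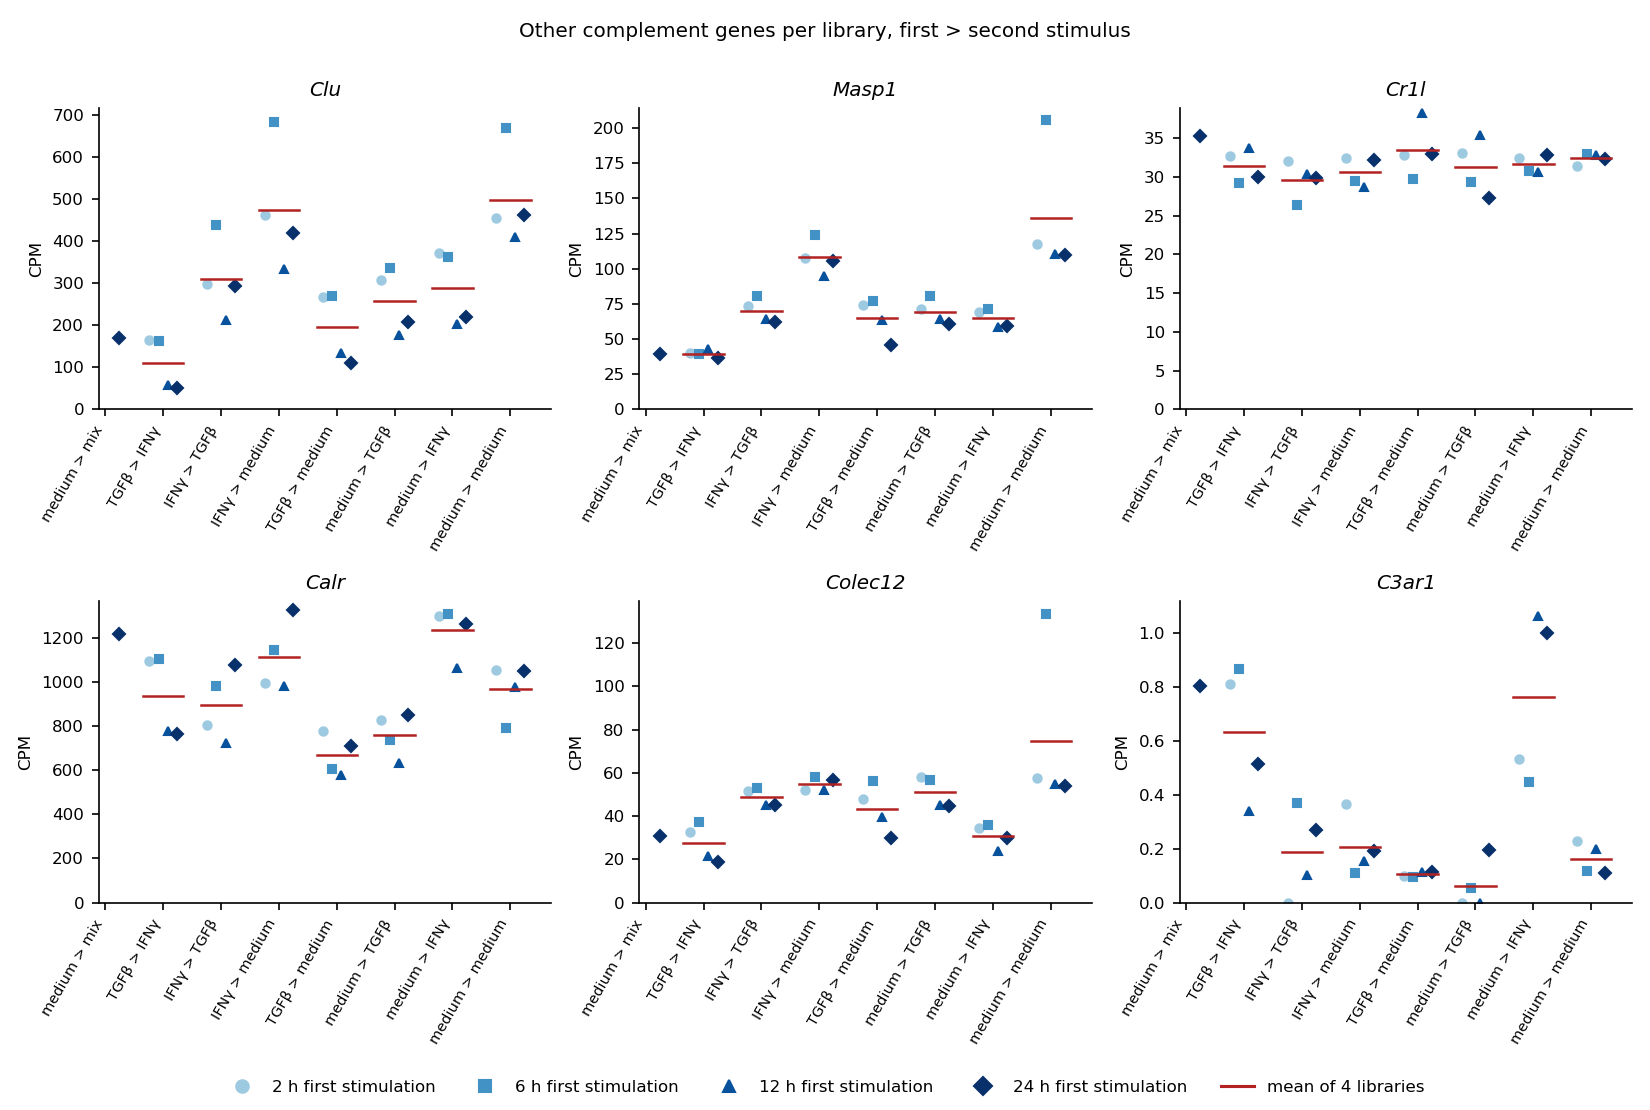
CPM (linear axes from 0) of 6 other complement genes in the 29 libraries, by first and second stimulus, with the marker giving the length of the first stimulation and the red line the mean of 4 libraries. Clu was at 109 ± 62.8 CPM after TGFβ then IFNγ and 499 ± 117 CPM after medium then medium, the means of Cr1l lay between 29.6 and 33.4 CPM, with 35.2 CPM in the mix library, and the 6 h medium library was the highest of its group for Clu, Masp1 and Colec12.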

How the data were processed

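Raw read counts of 28229 genes in 29 libraries were deposited by the authors in a single table without scaling. The submitters' processing notes name HISAT (no version) and the build GRCm38, and the sources used here give neither the counting tool nor its strand setting. Libraries came from a stranded mRNA kit, per the labels' protocols. The 8 genes and the lists of other genes were chosen with earlier results of these data known.

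Counts were fitted in edgeR 4.0.16 (R 4.3.3, limma 3.58.1) with TMM scaling, a filter on low counts by group (filterByExpr, minimum count 10), a term per order of treatment and duration as a factor, with 18 residual degrees of freedom. Duration was kept as a block because it was the replicate number of every order. Slopes came from a fit with an intercept and a slope per order. A standard error is the size of the log2 fold change divided by the square root of its F value. CPM used TMM-scaled totals, and correlations used log2 CPM with a prior count of 2. Counts of 0 were bounded at 3 reads over a group. All 8 genes are named, and up to 3 most similar genes for each tested one. The fits were tested on simulated data. Alternatives were DESeq2 1.42.0, its size factors in edgeR, no filter, no duration term, only the groups compared, and leaving out each library or duration. No libraries of 1 group agreed within sampling noise (lowest chi-square per degree of freedom 3.73). Depth limits the precision of every value of C3 and Cfb. Intervals cover counting error only. Values of 1 further complement gene are not reported here.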

Additional observations from a re-analysis of the deposited data

Results flagged for a closer look

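In 94 groups of 4 libraries with at least 10 reads of a tested complement gene, 6 held a library far from its 3 fellows by Dixon's criterion, which chance meets in about 1 in 20 groups. Among the 8 genes this was Cd59a after IFNγ then medium, at 3.09 CPM in the 2 h library and 2.34 to 2.39 CPM in the others. The medium then medium library of 6 h was high for Masp1, at 206 CPM against 110 to 118 CPM in the others of its group, and for Colec12, a scavenger receptor of the collectin family, at 134 CPM against 53.7 to 57.6 CPM. Cd46, a membrane cofactor for C3b and C4b cleavage, was at 2.16 CPM in the 6 h library of IFNγ then medium, against 1.29 to 1.36 CPM in the others, and at 2.05 CPM in the 24 h library of medium then medium, against 1.51 to 1.56 CPM. Cd93 was low in the 24 h library of TGFβ then medium, at 653 CPM against 793 to 818 CPM.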

How the results depend on the processing

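The number of the 8 genes called kept within 1.5 times its value under every alternative run, except in 3 comparisons. With TGFβ second it was 2 with DESeq2 (1 in edgeR). With TGFβ first it was 2 with DESeq2, 2 with no filter and 0 with only the groups compared (1 in edgeR), and 0 to 2 when libraries of the compared groups or durations were left out. With TGFβ before IFNγ it was 1 with no filter (0 in edgeR), and 0 to 1 with libraries of the compared groups or whole durations left out. In these the gene gained was C4b and the gene lost was Cd59a. Leaving out a library outside that comparison could also add Serping1, and without the medium then medium library of 6 h both C4b and Serping1 passed. No result reversed its direction. With IFNγ second the count was 5 to 6 with libraries left out, and with the order of cytokines 4 to 5. The cause of these shifts was not tested.

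Replicate numbers stand for durations. Deviations from the group means correlated between same-numbered libraries at 0.106 to 0.288 for TGFβ before IFNγ and 0.371 to 0.499 for TGFβ first against second, but only 0.00158 to 0.233 for IFNγ second and -0.0409 to 0.0536 for IFNγ first. Without the replicate block the number of the 8 genes called was 5 with IFNγ second, 1 with TGFβ second, 1 with TGFβ first and 5 for the order of cytokines, as with it. Over all genes, with TGFβ second 1726 were called without the block and 1054 in a fit of only the groups compared (3476 in the edgeR fit), and with TGFβ first 2615 and 1394 (4325). With TGFβ before IFNγ it was 1232 without the block (2365), and with IFNγ first 6 without the block and 386 with DESeq2 (118). With IFNγ before TGFβ it was 1 without the block and 163 with DESeq2 (14), and for the interaction of TGFβ beforehand 16 and 206 (59). DESeq2 and the fit without the block were not run for the slopes. At 40 reads of C3 and 12 of Cfb in all, depth limits both.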
